A study of Homo sapiens with 24 samples.

Results

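Expression of 10 genes that regulate the growth kinase complex mTORC1 in response to nutrients was described in 2 leukaemia cell lines treated with ibrutinib, asparaginase or both. The genes were DDIT4, DEPTOR, CASTOR1, RRAGC, RRAGD, FLCN, FNIP1, FNIP2, MTOR and RPTOR, taken by symbol from a table of 58735 genes, and each symbol was found once. Nalm6 and Sem are established human cell lines from acute lymphoblastic leukaemia of B cell precursors, and Sem carries a rearranged KMT2A gene. Ibrutinib inhibits Bruton's tyrosine kinase, and asparaginase is an enzyme that removes asparagine from the medium. In each line, 3 libraries came from cells given 10 µM ibrutinib, 3 from cells given asparaginase, 3 from cells given both (the combination), each for 24 h, and 3 from untreated cells whose harvest time was not stated. The design gave 1 IU/ml as the dose of asparaginase, as did the sample characteristics, but the treatment protocol gave 0.5 IU/ml. All cells grew in RPMI with serum, no gene was altered in either line, and the triplicates were not said to be separate cultures, so p-values measure only the spread between these libraries.

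mTORC1 is a protein kinase complex that promotes protein synthesis and growth when amino acids and growth factors are present. Amino acids act through the Rag GTPases on the lysosome, dimers of RRAGA or RRAGB with RRAGC or RRAGD, which recruit mTORC1 to its activator RHEB. FLCN, bound to FNIP1 or FNIP2, is the GTPase-activating protein for RRAGC and RRAGD, and through them it controls phosphorylation of the transcription factors TFEB and TFE3. CASTOR1 reports on arginine, DDIT4 (REDD1) represses mTORC1 through the TSC complex under stress, DEPTOR binds and restrains the kinase, MTOR is the catalytic subunit and RPTOR brings substrates to it.

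Recovered reads assigned to genes numbered 15032809 to 18136263 per library. All 9 B cell precursor markers had a median of at least 1 FPKM (fragments per kilobase of gene, scaled to library depth) in Nalm6, and 8 of 9 did in Sem. HOXA9, HOXA10 and MEIS1, markers of KMT2A-rearranged leukaemia, lay between 8.87 and 30.1 FPKM in Sem and were listed at 0 in Nalm6. Among markers of other cell types, TRAC reached 70.5 to 99.4 FPKM in Sem and 0.39 to 9.53 in Nalm6, LYZ reached at most 1.5 FPKM in Sem and 3.92 to 14.2 in Nalm6, and CSF1R reached 1.5 to 4.56 FPKM in Sem and at most 0.0231 in Nalm6. COL1A1 lay at 0.449 to 0.979 FPKM in Sem, and the other markers of T, myeloid, erythroid and stromal cells stayed under 1 FPKM, with CD3D and CD3E at 0. The part of such cells in the results was not tested. 5 libraries were listed beforehand as those that stood apart from their group (Nalm6 untreated 2, asparaginase 1 and combination 1, and Sem untreated 2 and ibrutinib 2). No measure behind that list is given here. Levels are in FPKM and changes are differences of log2(FPKM + 1), which understate the change of low genes. A change was called at an adjusted p under 0.05 in limma. In such bulk RNA, a change in every cell and a change in some of the cells cannot be told apart.

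DDIT4 had the largest root mean square log2 change of the 8 members tested, although in the Sem combination its change was among the smallest. Asparaginase raised it in both lines, whereas ibrutinib raised it in Nalm6 and lowered it in Sem. Nalm6 libraries held 59.0, 65.0 and 64.5 FPKM with ibrutinib, 153, 161 and 166 with asparaginase, and 123, 132 and 129 with the combination, against 45.0, 49.8 and 49.0 in untreated cells. No group overlapped another in Nalm6, and the order of the means was asparaginase, combination, ibrutinib and untreated. Sem libraries held 42.2, 37.5 and 42.9 FPKM with ibrutinib, 164, 147 and 172 with asparaginase, and 78.7, 78.3 and 83.1 with the combination, against 70.2, 71.2 and 68.9 in untreated cells. The groups did not overlap in Sem either, but there the ibrutinib libraries lay below the untreated ones, and the combination lay only 1.14-fold above them.

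In Nalm6 the log2 change of DDIT4 was 0.38 ± 0.06 with ibrutinib (SE; adjusted p = 0.00188), 1.72 ± 0.06 with asparaginase (adjusted p = 4.04e-09) and 1.40 ± 0.06 with the combination (adjusted p = 5.42e-09), all by limma. On the FPKM scale, the asparaginase mean was 3.34 times and the combination mean 2.67 times the untreated mean. In Sem the log2 change fell by 0.77 with ibrutinib (SE 0.06, adjusted p = 4.53e-06), and it was 1.18 ± 0.06 with asparaginase (adjusted p = 2.31e-07) and 0.19 ± 0.06 with the combination (adjusted p = 0.0234). The last call was lost, with adjusted p of up to 0.082, when the untreated library 1, the untreated library 3 or the combination library 3 of Sem was left out, and at 0.054 with no filter on low genes; its value then lay between 0.16 and 0.19.

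The combination lowered DDIT4 relative to asparaginase alone in both lines. That difference was -0.32 ± 0.06 in Nalm6 (limma, adjusted p = 0.00224) and -0.996 ± 0.06 in Sem (adjusted p = 6.59e-07). Relative to ibrutinib alone, DDIT4 was higher in the combination by 1.01 ± 0.06 in Nalm6 (adjusted p = 1.09e-07) and by 0.95 ± 0.06 in Sem (adjusted p = 3.23e-06). The changes with the single drugs summed to 2.10 in Nalm6, and the combination fell short of that sum by a called difference of -0.70 ± 0.08 (adjusted p = 0.000766). In Sem the sum was 0.42 and the shortfall, -0.23 ± 0.09, did not pass the test (adjusted p = 0.218).

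Part of the DDIT4 signal cannot be assigned to a strand. DDIT4 (ENSG00000168209, build GRCh38, chromosome 10, 72273920 to 72276036, plus strand) shares 847 exon bases, 41.2% of its exons, with the antisense gene DDIT4-AS1, and whether the counting used strand was not stated. DDIT4-AS1 averaged 17.1 ± 1.38 FPKM with ibrutinib, 34.9 ± 3.42 with asparaginase, 27.2 ± 1.46 with the combination and 10.1 ± 1.15 in untreated Nalm6 cells (SD, n = 3 each). In Sem it averaged 7.52 ± 0.898, 30.8 ± 3.38, 14.9 ± 1.97 and 11.6 ± 1.37 FPKM for the same groups. Its order of groups was that of DDIT4 in both lines, and within a library DDIT4 stood 3.48 to 6.89 times higher.

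**Figure D1:**
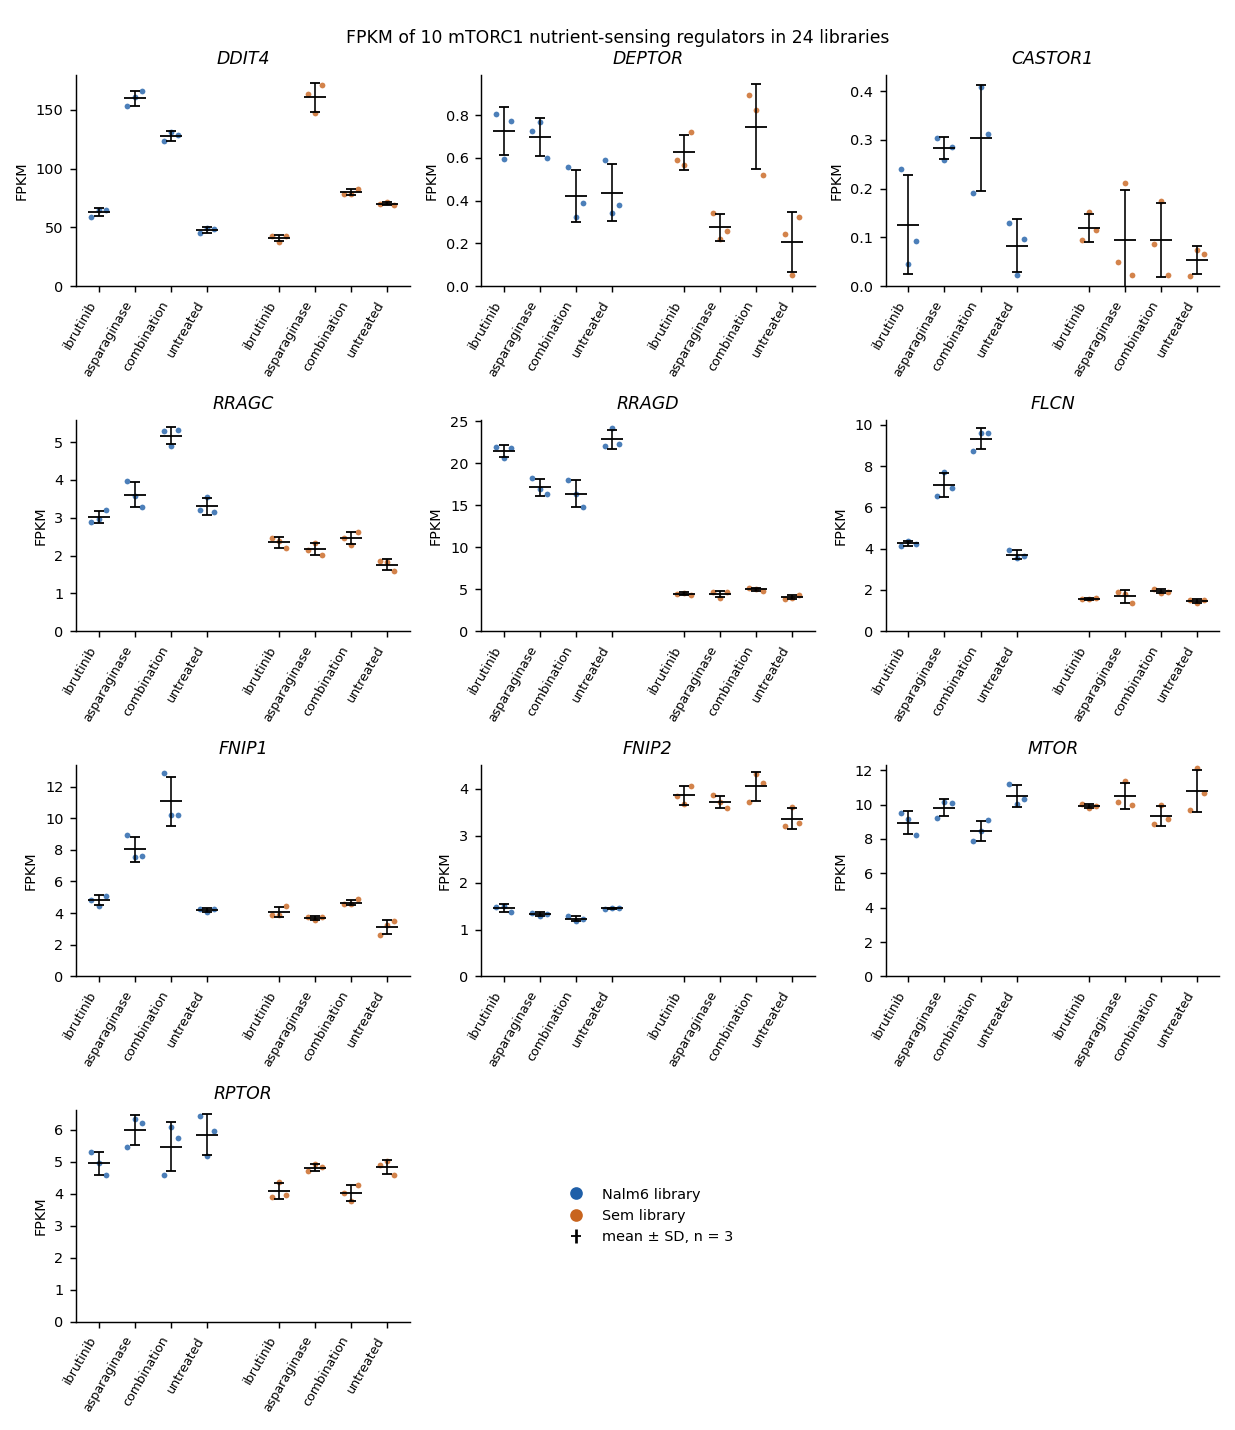
FPKM of each of the 10 genes on its own axis from 0, with the 3 libraries of a group as dots (blue for Nalm6, orange for Sem) and the mean ± SD in black. The asparaginase groups of DDIT4 average 160.0 FPKM in Nalm6 and 161 in Sem, FLCN and FNIP1 are highest in the Nalm6 combination, and RRAGD and FNIP2 differ mainly by line.

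The inhibitor DEPTOR and the arginine sensor CASTOR1 were measured at low levels, under 1 FPKM in all 24 libraries, and neither passed the filter of the main test. DEPTOR (chromosome 8, 119873717 to 120050913, plus strand) rested on 2 to 40 reads and CASTOR1 on 1 to 20 reads per library, so their ratios are imprecise. In Sem, DEPTOR held 0.591, 0.565 and 0.721 FPKM with ibrutinib, 0.341, 0.222 and 0.26 with asparaginase, and 0.894, 0.825 and 0.519 with the combination, against 0.246, 0.0517 and 0.325 in untreated cells. All 6 Sem libraries with ibrutinib lay above all 6 without it. Their means were 0.686 ± 0.152 and 0.241 ± 0.104 FPKM (SD, n = 6 each; exact two-sided permutation test, p = 0.00216, the smallest this design can give, adjusted p = 0.0173 over 8 such tests). In Nalm6, the ibrutinib libraries (0.573 ± 0.196 FPKM) and the others (0.567 ± 0.175 FPKM) overlapped (SD, n = 6 each; exact permutation test, p = 0.935). This test pooled unlike groups. In Nalm6, DEPTOR held 0.803, 0.596 and 0.773 FPKM with ibrutinib alone and 0.726, 0.768 and 0.6 with asparaginase alone. It held 0.557, 0.322 and 0.387 FPKM with the combination, against 0.589, 0.344 and 0.378 in untreated cells. Both single-drug groups lay above all untreated libraries, whereas the combination overlapped them.

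In the permutation tests, CASTOR1 showed its difference in the other line and with the other drug. In Nalm6 it held 0.241, 0.0455 and 0.0923 FPKM with ibrutinib, 0.303, 0.259 and 0.286 with asparaginase, and 0.192, 0.409 and 0.311 with the combination, against 0.13, 0.0235 and 0.0964 in untreated cells. The asparaginase and combination libraries lay above the untreated ones, and a single ibrutinib library (0.241) lay above the lowest combination library (0.192). The 6 Nalm6 libraries with asparaginase averaged 0.293 ± 0.0714 FPKM and the 6 without it 0.105 ± 0.0769 FPKM (SD; exact two-sided permutation test, p = 0.00433, adjusted p = 0.0173 over the 8 tests). The Sem groups averaged 0.054 to 0.12 FPKM. The 3 ibrutinib libraries of Sem lay above its 3 untreated ones, and the asparaginase and combination groups overlapped both. The 8 tests pool libraries over the second drug and were chosen after the values had been seen. CASTOR1 (chromosome 22, 30285117 to 30289627, minus strand) shares 1262 exon bases, 46.0% of its exons, with the same-strand gene AC004997.1, which was listed at 0. Whether reads in the shared bases were counted for CASTOR1 was not tested, so its level may be understated.

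With voom, limma's method for read counts, run on the recovered reads of all genes with no filter, DEPTOR was called in Sem with ibrutinib (log2 change 1.83 ± 0.48, adjusted p = 0.0096) and with the combination (2.07 ± 0.47, adjusted p = 0.00233). Its untreated level was lower in Sem than in Nalm6 by the same method (-1.35 ± 0.44, adjusted p = 0.0169). CASTOR1 was called in Nalm6 with asparaginase (1.96 ± 0.60, adjusted p = 0.0182) and with the combination (2.02 ± 0.60, adjusted p = 0.0121). Between the lines, the combination effect on DEPTOR differed (Sem minus Nalm6, 2.0 ± 0.55, adjusted p = 0.0123), whereas the difference in its ibrutinib effect (adjusted p = 0.363) and that in the asparaginase effect on CASTOR1 (adjusted p = 0.38) did not pass the test.

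The Rag GTPases RRAGC and RRAGD, alternative partners in the same dimer, moved in opposite directions in the Nalm6 combination and both rose in the Sem combination. RRAGC (chromosome 1, 38838198 to 38859823, minus strand) held 2.89, 2.96 and 3.21 FPKM with ibrutinib, 3.96, 3.58 and 3.30 with asparaginase, and 5.28, 4.91 and 5.33 with the combination, against 3.19, 3.55 and 3.15 in untreated Nalm6 cells. RRAGC shares 1183 exon bases, 22.9% of its exons, with the same-strand gene AL139260.2, which was listed at 0. Whether reads in the shared bases were counted for RRAGC was not tested, which limits its level and its ratio to RRAGD. The combination libraries stood above all other Nalm6 libraries, while the single-drug groups overlapped the untreated one. The combination change was 0.52 ± 0.07 (limma, adjusted p = 4.84e-05), where the single-drug changes summed to 0.0038, and the excess of 0.52 ± 0.10 over that sum was called (adjusted p = 0.0122). RRAGC and DDIT4 were the members whose combination departed from the sum in Nalm6, in opposite directions: 2 of 8 tested members were called, against 5.58% of 13237 genes.

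RRAGD (chromosome 6, 89364636 to 89412270, minus strand) was lower wherever Nalm6 had received asparaginase. Its libraries held 21.9, 20.6 and 21.8 FPKM with ibrutinib, 18.2, 16.9 and 16.3 with asparaginase, and 18.0, 16.3 and 14.8 with the combination, against 22.1, 24.2 and 22.3 in untreated cells. The log2 change was -0.40 ± 0.07 with asparaginase (limma, adjusted p = 0.000568) and -0.46 ± 0.07 with the combination (adjusted p = 0.000146). All asparaginase and combination libraries lay below all ibrutinib and untreated libraries.

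In Sem the untreated levels of both Rag genes were lower than in Nalm6, and both genes rose in the combination. RRAGC held 2.46, 2.40 and 2.20 FPKM with ibrutinib, 2.16, 2.34 and 2.01 with asparaginase, and 2.47, 2.29 and 2.63 with the combination, against 1.85, 1.82 and 1.59 in untreated cells. All treated libraries lay above the untreated ones; ibrutinib (0.28 ± 0.07, adjusted p = 0.0086) and the combination (0.33 ± 0.07, adjusted p = 0.00249) were called by limma, and asparaginase was not. RRAGD held 5.16, 5.01 and 4.78 FPKM with the combination, against 3.82, 3.97 and 4.28 in untreated cells, and rose by 0.25 ± 0.06 (adjusted p = 0.00433). The single-drug groups of RRAGD, 4.30 to 4.61 FPKM with ibrutinib and 3.97 to 4.64 with asparaginase, were not called. After rescaling to TPM both were called by limma, at 0.19 with ibrutinib (adjusted p = 0.0217) and 0.18 with asparaginase (adjusted p = 0.0447).

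Within a library, the FPKM ratio of RRAGC to RRAGD averaged 0.141 ± 0.00803 with ibrutinib, 0.211 ± 0.00772 with asparaginase, 0.318 ± 0.0367 with the combination and 0.144 ± 0.00299 in untreated Nalm6 cells (SD, n = 3 each). Asparaginase and combination libraries exceeded all untreated ones, and the combination libraries exceeded the asparaginase ones. In Sem the ratio was higher throughout, 0.527 ± 0.0201, 0.497 ± 0.0818 and 0.496 ± 0.0492 for the same treatments and 0.439 ± 0.0591 in untreated cells, and the asparaginase and combination groups overlapped the untreated one.

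FLCN and its partner FNIP1 rose together in Nalm6, with asparaginase and further with the combination, while FNIP2 did not pass the test there. FLCN (chromosome 17, 17212212 to 17237188, minus strand) held 4.14, 4.39 and 4.22 FPKM with ibrutinib, 6.57, 7.70 and 6.94 with asparaginase, and 8.74, 9.62 and 9.61 with the combination, against 3.94, 3.54 and 3.62 in untreated cells. FLCN shares 1161 exon bases, 11.9% of its exons, with the same-strand gene AC055811.2, which averaged 0.202 FPKM. The 4 groups of FLCN did not overlap. Its log2 change was 0.78 ± 0.06 with asparaginase (limma, adjusted p = 2.04e-06) and 1.13 ± 0.06 with the combination (adjusted p = 6.27e-08), a mean FPKM 1.91 and 2.52 times the untreated one. With ibrutinib alone the mean was 1.15 times the untreated one and was not called.

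FNIP1 (chromosome 5, 131641714 to 131797063, minus strand) held 4.85, 4.48 and 5.09 FPKM with ibrutinib, 8.93, 7.53 and 7.63 with asparaginase, and 12.9, 10.2 and 10.2 with the combination, against 4.28, 4.04 and 4.29 in untreated Nalm6 cells. Its groups did not overlap either, and combination library 1 was the highest of the line. The log2 change of FNIP1 was 0.79 ± 0.09 with asparaginase (limma, adjusted p = 2.54e-05) and 1.21 ± 0.09 with the combination (adjusted p = 5.64e-07). FNIP2 (chromosome 4, 158769138 to 158908049, plus strand) held 1.49, 1.51 and 1.36 FPKM with ibrutinib, 1.36, 1.28 and 1.33 with asparaginase, and 1.29, 1.18 and 1.23 with the combination, against 1.44, 1.46 and 1.46. Every asparaginase and combination library of FNIP2 lay below the untreated libraries, but the differences were not called. The combination change of FNIP2, -0.14, was called after quantile normalization (-0.35, adjusted p = 0.00115), after correction for GC and length (-0.25, adjusted p = 0.00592) and in a fit of both lines (adjusted p = 0.0282), and its asparaginase change after quantile normalization (-0.27, adjusted p = 0.00749).

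In Sem, FNIP1 held 3.88, 3.88 and 4.44 FPKM with ibrutinib, 3.77, 3.56 and 3.75 with asparaginase, and 4.6, 4.55 and 4.87 with the combination, against 2.63, 3.26 and 3.5 in untreated cells. It rose with ibrutinib (0.30 ± 0.08, limma, adjusted p = 0.0101) and with the combination (0.46 ± 0.08, adjusted p = 0.000457). The asparaginase change, 0.19 ± 0.08, was not called (adjusted p = 0.0998). It was called after rescaling to TPM (0.26, adjusted p = 0.0264) and with voom on the recovered reads (0.29, adjusted p = 0.0132). All treated libraries lay above the untreated ones. FLCN held 2.07, 1.86 and 1.91 FPKM with the combination, against 1.53, 1.37 and 1.53 in untreated Sem cells, a change of 0.25 ± 0.09 (adjusted p = 0.0326). That call was lost when any of the 6 libraries compared was left out (adjusted p up to 0.1) and, at 0.112, without the libraries that stood apart. It was also lost after quantile normalization (0.12, adjusted p = 0.281), after a correction for GC and length (adjusted p = 0.0716) and with no filter (adjusted p = 0.0676). FNIP2 held 3.73, 4.32 and 4.12 FPKM with the combination, against 3.21, 3.62 and 3.27, a change of 0.21 ± 0.06 (adjusted p = 0.0128), which missed the threshold at 0.055 without the combination library 2. After quantile normalization it was 0.11 (adjusted p = 0.149), and after correction for GC and length 0.09 (adjusted p = 0.171).

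The ratio of FNIP1 to FNIP2 within a library averaged 3.32 ± 0.389 with ibrutinib, 6.06 ± 0.429 with asparaginase, 8.95 ± 0.901 with the combination and 2.89 ± 0.107 in untreated Nalm6 cells (SD, n = 3 each). In Nalm6, asparaginase and combination libraries exceeded all untreated ones. In Sem the ratio stayed near equality, between 0.819 and 1.23 in the 12 libraries.

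**Figure D2:**
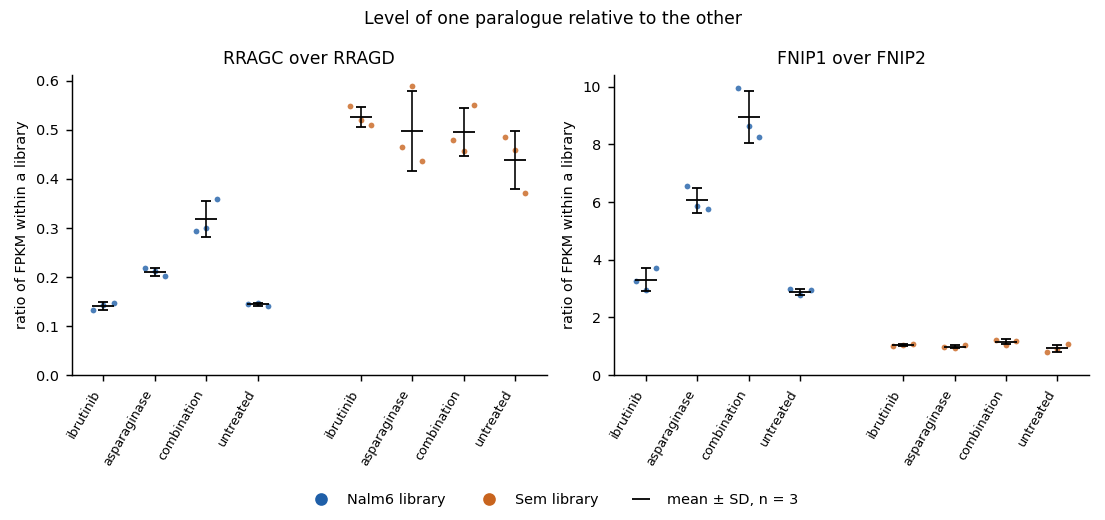
Ratio of RRAGC to RRAGD FPKM (left) and of FNIP1 to FNIP2 FPKM (right) within each library, both axes from 0, with libraries as dots and mean ± SD in black. The Nalm6 combination has the highest ratios of its line, 0.318 and 8.95 on average, against 0.144 and 2.89 in untreated cells.

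FLCN, FNIP1 and RRAGC were higher in the Nalm6 combination than with asparaginase alone, and their promoters are shown because the MiT/TFE factors that FLCN restrains are known to bind E-box sequences. The windows run from 250 to 61 bases before the annotated start, in RefSeq on GRCh38.p14. Capitals mark CACGTG, the E-box, which reads the same on both strands. The FNIP1 window (minus strand, chr5:131797078-131797267) holds 2 of them, the RRAGC window (minus strand, chr1:38859833-38860022) holds 1, and the FLCN window (minus strand, chr17:17237229-17237418) holds 0.
FNIP1: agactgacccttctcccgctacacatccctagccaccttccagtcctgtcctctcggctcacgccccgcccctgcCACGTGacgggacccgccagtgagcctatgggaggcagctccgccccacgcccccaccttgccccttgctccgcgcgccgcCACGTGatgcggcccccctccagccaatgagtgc
RRAGC: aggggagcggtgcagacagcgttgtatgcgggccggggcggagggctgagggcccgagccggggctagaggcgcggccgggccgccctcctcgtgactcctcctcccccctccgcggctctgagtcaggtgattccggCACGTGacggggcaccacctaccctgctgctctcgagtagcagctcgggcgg
FLCN: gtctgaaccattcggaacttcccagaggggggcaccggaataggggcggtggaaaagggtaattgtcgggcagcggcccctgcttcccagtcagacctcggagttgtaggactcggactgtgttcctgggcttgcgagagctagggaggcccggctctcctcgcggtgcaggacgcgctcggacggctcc
Promoters were found for 8 of the 10 genes, not for RRAGD or DEPTOR, and were searched on both strands over the whole window from 250 bases before to 50 after the start. CACGTG occurs in 7.26% of 35116 such promoters and, among the members, in those of FNIP1 and RRAGC. TCACGTGA, an extended E-box that contains CACGTG, occurs in 0.98%, and TGATGNAA, a core of amino acid response elements, in 3.62%; neither was found in a member's window. These matches describe letters and are no evidence of binding.

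The catalytic subunit and its scaffold changed little. MTOR (chromosome 1, 11106535 to 11262507, minus strand), which shares 220 exon bases with MTOR-AS1, held 9.49, 9.16 and 8.21 FPKM with ibrutinib, 9.24, 10.1 and 10.1 with asparaginase, and 7.87, 8.46 and 9.07 with the combination, against 11.2, 10.0 and 10.3 in untreated Nalm6 cells. The combination libraries lay below the untreated ones, and the change of -0.28 ± 0.07 was called (limma, adjusted p = 0.00396), though not after rescaling to TPM (-0.13, adjusted p = 0.175) or with voom and no filter (adjusted p = 0.0697). In Sem, MTOR held 8.88, 9.96 and 9.17 FPKM with the combination, against 9.67, 12.1 and 10.7 in untreated cells, and these groups overlapped. That change, -0.19 ± 0.07 (adjusted p = 0.0482), was -0.11 (adjusted p = 0.206) without the libraries that stood apart and -0.10 (adjusted p = 0.283) after rescaling to TPM. It was also lost, with adjusted p of 0.086 to 0.182, without untreated library 2 or 3 or combination library 1 or 3, and at 0.0542 to 0.145 with no filter, quantile normalization or voom.

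RPTOR (chromosome 17, 80544819 to 80966371, plus strand) fell in Sem with ibrutinib by the test. The ibrutinib change was of the same size in both lines, -0.202 in Sem and -0.201 in Nalm6, where it was not called (adjusted p = 0.21), and the lines did not differ detectably (adjusted p = 0.998, limma). Without the libraries that stood apart, the Nalm6 change was -0.27 and was called (adjusted p = 0.0164). Sem libraries held 3.89, 4.35 and 3.97 FPKM with ibrutinib, 4.70, 4.93 and 4.82 with asparaginase, and 4.01, 3.76 and 4.26 with the combination, against 4.90, 5.02 and 4.58 in untreated cells. The ibrutinib and combination libraries lay below all libraries without ibrutinib. The changes were -0.20 ± 0.06 with ibrutinib (limma, adjusted p = 0.0126) and -0.22 ± 0.06 with the combination (adjusted p = 0.00601), and after rescaling to TPM they were -0.13 (adjusted p = 0.104) and -0.14 (adjusted p = 0.065). The ibrutinib call was also lost in a fit of both lines (adjusted p = 0.0588). Nalm6 groups averaged 4.94 ± 0.352 FPKM with ibrutinib, 6.0 ± 0.466 with asparaginase and 5.47 ± 0.774 with the combination, against 5.84 ± 0.636 in untreated cells (SD, n = 3 each). Each treated group overlapped the untreated one, while the ibrutinib libraries lay below the asparaginase ones.

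Calls were counted over the 8 members tested. In Nalm6, ibrutinib changed 1 member (DDIT4, higher), where 12.4% of all genes tested were called. Asparaginase changed 4 (3 higher, 1 lower), where 56.3% were called, and the combination changed 6 (4 higher, 2 lower), where 63.7% were called. In Sem, ibrutinib changed 4 (2 higher, 2 lower; 41.5% of all genes called), asparaginase 1 (DDIT4, higher; 26.4%) and the combination all 8 (6 higher, 2 lower; 52.9%). The Sem asparaginase count was 5 after rescaling to TPM and 4 with voom on the recovered reads, and the Sem combination count was 5 with no filter and 5 after quantile normalization. The median log2 change of the 8 members was 0.22 in the Nalm6 combination and 0.23 in the Sem combination, where the medians of all genes were 0.02 and 0.02.

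Against asparaginase alone, the Nalm6 combination changed 4 members (21.8% of all genes called): DDIT4 was lower, and RRAGC (0.42 ± 0.07, adjusted p = 0.00148), FNIP1 (0.42 ± 0.09, adjusted p = 0.00747) and FLCN (0.36 ± 0.06, adjusted p = 0.00254) were higher by limma. The Sem combination changed 3 members against asparaginase (38.3% called): DDIT4 and RPTOR (-0.22 ± 0.06, adjusted p = 0.00981) were lower and FNIP1 (0.27 ± 0.08, adjusted p = 0.0171) was higher. That FNIP1 call was lost, at adjusted p of 0.054 and 0.06, without the asparaginase library 2 or the combination library 3. Against ibrutinib alone, the combination changed 5 members in Nalm6 (57.2% called), all of them called with asparaginase or with the combination, and DDIT4 alone in Sem (12.1% called). In Sem no member departed from the sum of the single-drug changes by limma (1.54% of 13417 genes called).

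**Figure D3:**
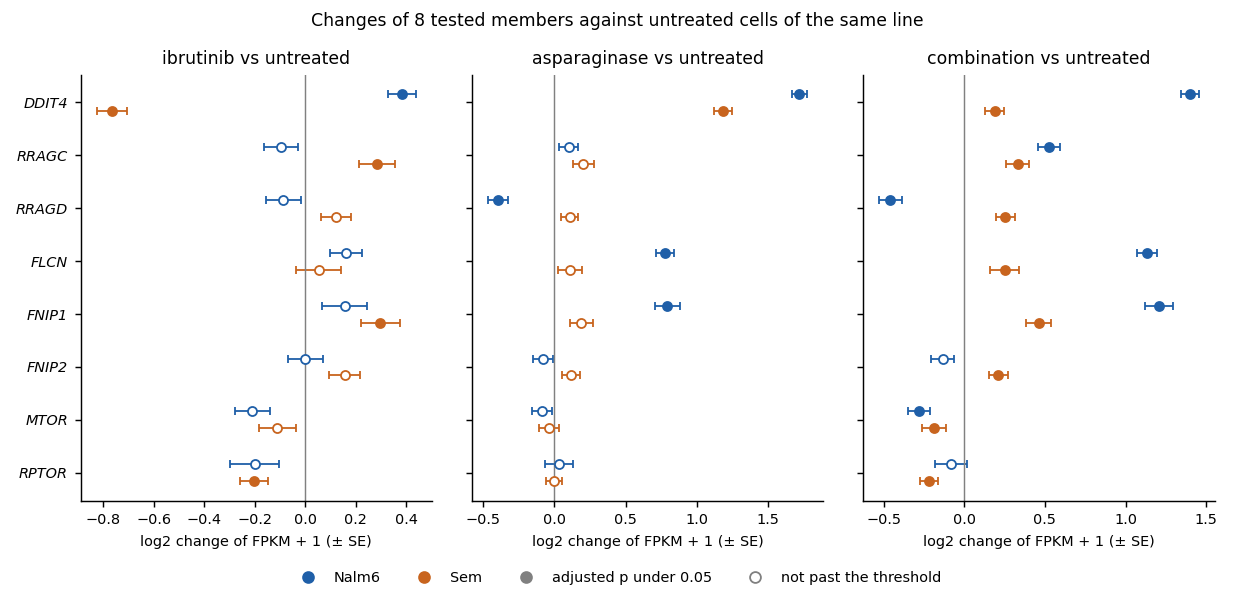
Change of log2(FPKM + 1) against untreated cells of the same line (± SE) for the 8 members tested, in blue for Nalm6 and orange for Sem; filled symbols have an adjusted p under 0.05. DDIT4 lies at 0.38 in Nalm6 and at -0.77 in Sem with ibrutinib, and FLCN and FNIP1 lie beyond 1 in Nalm6 with the combination.

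The lines differed in the level of most members before treatment. Of the 8 members tested, 7 differed between untreated Sem and untreated Nalm6, where 65.9% of all genes did. RRAGD had the widest gap, with 4.02 ± 0.234 FPKM in Sem and 22.8 ± 1.13 in Nalm6 (SD, n = 3 each), so that Nalm6 stood 5.68 times higher (log2 difference -2.25 ± 0.06, limma, adjusted p = 5.54e-17). FLCN (1.48 ± 0.0932 FPKM in Sem, 3.70 ± 0.212 in Nalm6; -0.92 ± 0.07, adjusted p = 3.38e-10) and RRAGC (1.75 ± 0.142 in Sem, 3.30 ± 0.222 in Nalm6; -0.64 ± 0.06, adjusted p = 2.45e-08) were also lower in Sem. FNIP2 (3.37 ± 0.22 FPKM in Sem, 1.45 ± 0.0103 in Nalm6; 0.83 ± 0.05, adjusted p = 1.74e-11) and DDIT4 (70.1 ± 1.19 in Sem, 47.9 ± 2.57 in Nalm6; 0.54 ± 0.06, adjusted p = 1.13e-07) were higher in Sem.

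FNIP1 was lower in Sem by a smaller margin (-0.34 ± 0.09, adjusted p = 0.00172). RPTOR was too (-0.23 ± 0.08, adjusted p = 0.0187), but its call was lost, at adjusted p of 0.052 to 0.105, without Nalm6 untreated library 1 or 3 or Sem untreated library 3. MTOR averaged 10.8 ± 1.22 FPKM in untreated Sem and 10.5 ± 0.622 in untreated Nalm6 cells and was not called. Each library is of a single line, so a difference between lines cannot be told apart from any difference in how the lines were grown or prepared.

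The responses themselves also differed between the lines. The difference in the ibrutinib effect, Sem minus Nalm6, was called for 2 members (13.7% of all genes called): -1.15 ± 0.08 for DDIT4 (limma, adjusted p = 2.0e-08) and 0.38 ± 0.09 for RRAGC (adjusted p = 0.00723). For asparaginase, 5 members were called (33.5%). The differences of FLCN (-0.67 ± 0.10, adjusted p = 2.98e-05), FNIP1 (-0.60 ± 0.12, adjusted p = 0.000704) and DDIT4 (-0.54 ± 0.08, adjusted p = 6.47e-05) were negative. Those of RRAGD (0.50 ± 0.09, adjusted p = 0.000258) and FNIP2 (0.20 ± 0.07, adjusted p = 0.0438) were positive. In Sem itself FLCN and FNIP1 were not called in the main fit, though FNIP1 was after rescaling to TPM and with voom. The FNIP2 value missed the threshold in 9 of the 12 fits that left out a library.

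For the combination, the same 5 members were called (40.8% of all genes). The values were -1.21 ± 0.08 for DDIT4, -0.88 ± 0.10 for FLCN, -0.74 ± 0.12 for FNIP1, 0.71 ± 0.09 for RRAGD and 0.35 ± 0.07 for FNIP2, with adjusted p by limma from 1.33e-09 to 0.000747. All 5 were called in each of the 12 fits that left out a library.

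**Figure D4:**
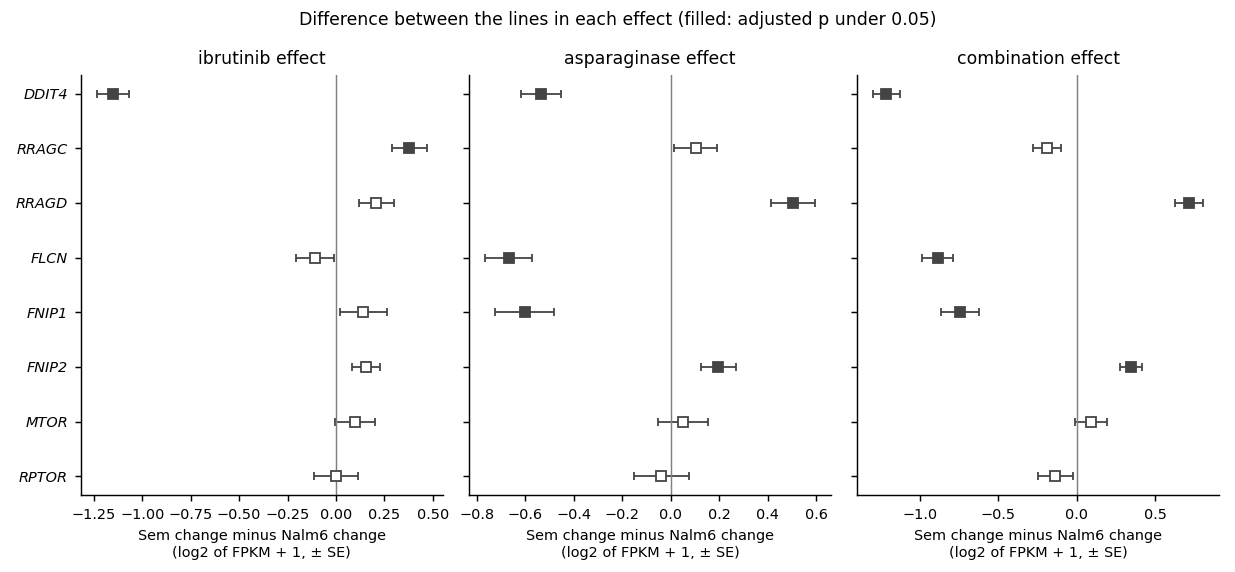
Change in Sem minus change in Nalm6 (log2 of FPKM + 1, ± SE) for each member and treatment; filled squares have an adjusted p under 0.05. DDIT4 lies at -1.15 for ibrutinib and -1.21 for the combination, FLCN and FNIP1 lie below 0 for asparaginase and the combination, and RRAGD lies above 0.

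Among 51 other genes of the pathway, listed by role with earlier results of these data known, 47 were tested in Nalm6 and 48 in Sem. In Nalm6, 3 rose and 5 fell with ibrutinib, 12 rose and 17 fell with asparaginase, and 14 rose and 20 fell with the combination. These are 17.0%, 61.7% and 72.3% of the list, against 12.4%, 56.3% and 63.7% of all genes. In Sem, 9 rose and 12 fell with ibrutinib, 5 rose and 11 fell with asparaginase, and 12 rose and 14 fell with the combination, or 43.8%, 33.3% and 54.2% of the list, against 41.5%, 26.4% and 52.9% of all genes. Rescaling to TPM gave 6 higher and 1 lower with ibrutinib, 16 and 12 with asparaginase and 21 and 14 with the combination in Nalm6. In Sem it gave 17 higher and 8 lower with ibrutinib, 9 and 7 with asparaginase and 18 and 11 with the combination, so the balance of directions depends on the scaling. The medians of the tested list lay between -0.06 and 0.04 in these comparisons, and those of all genes between -0.01 and 0.02.

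The leucine sensor SESN2, which inhibits GATOR2, was the pathway gene that moved most. SESN2 averaged 6.34 ± 0.789 FPKM with ibrutinib, 21.4 ± 1.80 with asparaginase and 13.4 ± 2.21 with the combination, against 4.11 ± 0.466 in untreated Nalm6 cells. In Sem it averaged 3.46 ± 0.267, 18.7 ± 0.634 and 11.5 ± 0.231 FPKM for the same treatments, against 3.13 ± 0.137 (SD, n = 3 each). Like DDIT4, it was highest with asparaginase alone in both lines, and its log2 change was called in all comparisons with untreated cells other than ibrutinib in Sem. SESN3, a relative, rose in Sem with ibrutinib (0.95 ± 0.07, adjusted p = 1.7e-06 by limma) and with the combination (1.17 ± 0.07, adjusted p = 1.4e-07), and was below the filter in Nalm6. In untreated Sem cells SESN3 lay under the 1 FPKM of the filter. It therefore entered the test only through treated libraries, which limits this result. CASTOR2, the paralogue of CASTOR1, fell with asparaginase in Sem (-0.62 ± 0.13, adjusted p = 0.0059).

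Subunits and assembly factors of mTORC1 other than the members were called lower, not higher, against untreated cells. Of 5 tested (MLST8, AKT1S1, TELO2, TTI1 and TTI2), 4 fell with asparaginase and 3 with the combination in Nalm6, 3 fell with ibrutinib, 2 with asparaginase and 4 with the combination in Sem, and 1 fell with ibrutinib in Nalm6. Of all genes, 28.1% were called lower with asparaginase and 31.3% with the combination in Nalm6, 21.3%, 15.1% and 26.3% with ibrutinib, asparaginase and the combination in Sem, and 7.46% with ibrutinib in Nalm6. None of the 5 was called higher against untreated cells in limma on FPKM, though AKT1S1 was in the Nalm6 combination after rescaling to TPM or with voom. Between treatments, 2 were higher and 2 lower in the Nalm6 combination than with asparaginase alone. MLST8, a subunit of both mTOR complexes, averaged 12.6 ± 1.27 FPKM with ibrutinib, 12.1 ± 0.84 with asparaginase and 8.28 ± 0.865 with the combination, against 17.3 ± 1.24 in untreated Nalm6 cells (SD, n = 3 each). TELO2, a cochaperone that stabilises the kinase, fell by 0.92 ± 0.10 in the Nalm6 combination (limma, adjusted p = 1e-05) and by 0.54 ± 0.06 in the Sem combination (adjusted p = 1.6e-05).

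Among the Rag partners and the Ragulator, the lysosomal anchor of the Rags, RRAGB rose and LAMTOR2 fell in the combination of both lines. RRAGB changed by 0.66 ± 0.08 in Nalm6 (adjusted p = 2e-05) and 0.38 ± 0.09 in Sem (adjusted p = 0.0036), and LAMTOR2 by -0.63 ± 0.06 (adjusted p = 2.1e-06) and -0.47 ± 0.09 (adjusted p = 0.001), all by limma. In GATOR2, which opposes the inhibitory complex GATOR1, SEH1L fell by 1.06 ± 0.06 in the Nalm6 combination (adjusted p = 7.5e-08) and SEC13 by 0.57 ± 0.05 in the Sem combination (adjusted p = 3.9e-06). SEC13 was called lower in Nalm6 too by limma, at -0.29 ± 0.07 with ibrutinib (adjusted p = 0.0201) and -0.60 ± 0.07 with asparaginase (adjusted p = 2.5e-05). SEH1L and SEC13 are also subunits of the nuclear pore, and SEC13 of the COPII coat.

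Of the transcription factors controlled through FLCN, TFE3 rose and TFEB fell in the combination of both lines. TFE3 averaged 5.32 ± 0.724 FPKM with ibrutinib, 6.16 ± 0.537 with asparaginase and 9.14 ± 1.16 with the combination, against 4.27 ± 0.41 in untreated Nalm6 cells, and its combination change was 0.94 ± 0.11 (limma, adjusted p = 1.5e-05), while that of TFEB was -0.38 ± 0.10 (adjusted p = 0.00517). TFEB averaged 7.59 ± 0.266 FPKM with ibrutinib, 10.6 ± 0.151 with asparaginase and 7.39 ± 0.244 with the combination, against 9.52 ± 0.377 in untreated Sem cells (SD, n = 3 each), a combination change of -0.33 ± 0.04 (adjusted p = 5.6e-05), while that of TFE3 was 0.46 ± 0.06 (adjusted p = 6.17e-05). With asparaginase alone, TFEB rose in Sem (0.15 ± 0.04, adjusted p = 0.0217). ULK1, the autophagy kinase that mTORC1 restrains, rose in Sem with ibrutinib (0.65 ± 0.06, adjusted p = 2e-05) and with the combination (0.67 ± 0.06, adjusted p = 6.9e-06). EIF4EBP1, the translation repressor that mTORC1 inactivates, fell in the Nalm6 combination (-0.75 ± 0.09, adjusted p = 3.6e-05) and in Sem with ibrutinib (-0.45 ± 0.04, adjusted p = 1.76e-05), and rose in Sem with asparaginase (0.62 ± 0.04, adjusted p = 3.1e-06). RICTOR, the scaffold of mTORC2, rose by 0.71 ± 0.08 in the Nalm6 combination (adjusted p = 9.7e-06). Of 3 mTORC2 genes tested there, 1 was higher and 2 were lower, where 63.7% of all genes were called. PRR5 was 1 of those lower (-0.65 ± 0.11, limma, adjusted p = 0.000344). In Sem, RICTOR rose by 0.26 ± 0.06 with ibrutinib (adjusted p = 0.00329) and by 0.23 ± 0.06 with the combination (adjusted p = 0.00414).

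**Figure D5:**
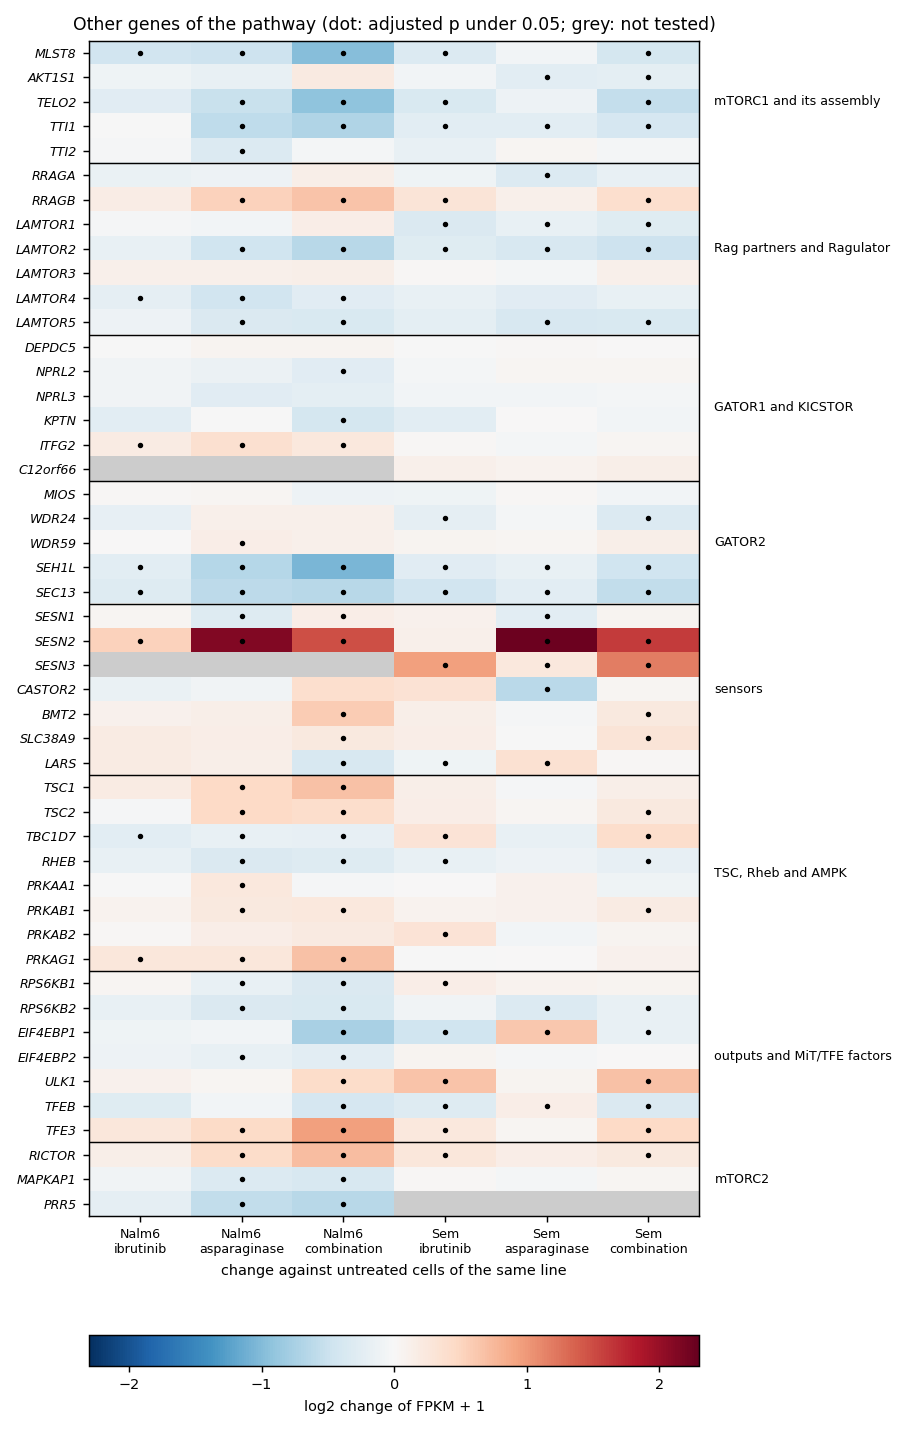
Log2 change of FPKM + 1 against untreated cells for other pathway genes tested in either line, ordered by role; red is higher, blue is lower, a dot marks an adjusted p under 0.05 and grey was not tested. SESN2 is the deepest red with asparaginase in both lines, and SEH1L and MLST8 are the deepest blue in the Nalm6 combination.

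Likeness to a member was measured as the root mean square (RMS) difference of the 6 changes against untreated cells, over 11741 genes tested in both lines. The members' own RMS changes were 1.09 for DDIT4, 0.639 for FNIP1 and 0.576 for FLCN, and at most 0.295 for the other 5. The genes nearest to DDIT4 were SNTB1 at 0.176, DDIT4-AS1 at 0.179 and AC116025.2 at 0.258. DDIT4-AS1 shares exon bases with DDIT4, and whether counting used strand was not stated, so its likeness may be partly shared reads. AC116025.2 rested on 2 to 43 reads per library, so its changes are imprecise. SNTB1, a syntrophin that binds dystrophin, averaged 12.7, 34.0 and 28.0 FPKM with ibrutinib, asparaginase and the combination, against 10.6 in untreated Nalm6 cells, and 4.79, 15.4 and 9.14 against 8.32 in Sem. Nearest to FLCN were LIMD2 (0.067), ATF7IP (0.0906) and ARHGAP15 (0.0913), and nearest to FNIP1 were AC016747.1 (0.0707), HEIH (0.0723) and MARF1 (0.075).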

How the data were processed

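RNA was purified on RNeasy columns and 24 libraries were made with the NEBNext Ultra kit, per the labels' protocols. The authors deposited FPKM per gene, made with fastp, STAR and featureCounts on hg38, versions not given in the sources used here, per the submitters' processing notes. All 299165 deposited values of 1 or more (21.2% of the table) had lost their decimal point. Intact values times gene length were whole multiples of a step per library, so read counts were recovered, and the power of 10 of each damaged value was chosen, per gene and line, among those giving whole reads, under t-distributed priors (5 degrees of freedom). Of simulated damaged values, 99.979% were restored correctly; all member values had a posterior of at least 0.9996, and DEPTOR and CASTOR1 were intact. This check cannot show an error of the power that a whole group shares. Deposited FPKM carried a scaling factor of 0.919 to 1.09 per library, of unstated method. In Nalm6 it was 0.982 to 0.995 in untreated cells, 1.03 to 1.04 with ibrutinib and 1.07 to 1.09 with asparaginase or the combination. In Sem it was 0.919 to 0.940 in untreated and 0.946 to 0.983 in treated cells. The factor thus differed by line and treatment, and changes between groups include it.

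Genes with at least 1 FPKM in at least 3 libraries were tested with limma 3.58.1 on log2(FPKM + 1), with two-sided p-values adjusted by Benjamini-Hochberg over all genes tested, within a line (12 libraries) or over both (24). On simulated data limma called 82% of genes changed 1.5-fold in Nalm6 and 78% in Sem, and 34% and 40% of those changed 1.25-fold. The simulation gave every gene the same fixed spread beyond counting error. These rates can therefore be too high for genes that vary more between libraries. Members, pathway lists and tests were chosen with earlier results of these data known. Of pathway genes, the highest and lowest called per role and the 3 highest and 3 lowest per comparison could be named; values of others were not named except where singled out. The values of 1 pathway gene are not reported here, though the counts include it. Replicate numbers were not taken as pairs. Coordinates are those of the files, and all 58735 genes match GENCODE 29. Alternatives were other pseudocounts (0.1 and 0.5), no filter, TPM rescaling, quantile normalization, voom on recovered reads, a GC and length correction, a replicate block, a fit of both lines, and leaving out libraries. Counting limits low genes: 1 to 40 reads lay behind DEPTOR and CASTOR1.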

Additional observations from a re-analysis of the deposited data

Results flagged for a closer look

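Effects on 6 members differed between the lines by a test of the difference itself, Sem minus Nalm6 on the log2 scale. Of all genes, the difference was called for 13.7% with ibrutinib, 33.5% with asparaginase and 40.8% with the combination. With ibrutinib the difference was -1.15 for DDIT4, which changed in opposite directions in the 2 lines, and 0.38 for RRAGC. With asparaginase it was -0.54 for DDIT4, -0.67 for FLCN, -0.60 for FNIP1, 0.50 for RRAGD and 0.20 for FNIP2. That FNIP2 call was lost in 9 of the 12 fits that left out a library. With the combination the difference was -1.21 for DDIT4, -0.88 for FLCN, -0.74 for FNIP1, 0.71 for RRAGD and 0.35 for FNIP2. The DDIT4 library values of the lines share no level with ibrutinib: 37.5 to 42.9 FPKM in Sem and 59.0 to 65.0 FPKM in Nalm6. Groups of 3 libraries are too small for a test of single outlying libraries.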

How the results depend on the processing

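Of 58 called changes of members, none reversed in 1051 alternative values, 48 kept the call in all alternatives, and 52 values lost it; the lost calls are those of DDIT4, FLCN, FNIP2, MTOR and RPTOR in the Sem combination, FNIP1 between the Sem combination and asparaginase, MTOR in the Nalm6 combination, RPTOR in Sem with ibrutinib and at baseline, and the FNIP2 asparaginase effect between the lines. TPM rescaling shifted the median of all genes by up to 0.14, voom by up to 0.14 and unfiltered voom by up to 0.20 (Nalm6 combination), so small changes of RPTOR, MTOR and FNIP2 depend on scaling. Of uncalled changes, 23 gained a call in at least 1 setting, 40 values in all, and 3 when a single library was left out. With ibrutinib in Nalm6 these were FLCN (voom 0.26, GC and length 0.19), MTOR (GC and length -0.23, without the libraries that stood apart -0.24) and RPTOR (-0.27 without those libraries). Others included RRAGC with asparaginase in both lines (0.17 to 0.35), FNIP2 with ibrutinib in Sem (0.16 to 0.24) and in the Nalm6 combination (-0.35 to -0.14), and RPTOR in the Nalm6 combination (-0.20, GC and length). In Sem, FNIP1 with asparaginase (TPM 0.26, voom 0.29) and RRAGD with ibrutinib (TPM 0.19) and with asparaginase (TPM 0.18) also gained a call. Uncalled values changed sign as follows. With TPM, FNIP2 and MTOR with asparaginase in Nalm6 were 0.011 and 0.053, MTOR between its combination and ibrutinib 0.017, and RPTOR in its combination 0.062. With voom, filtered and unfiltered, MTOR with asparaginase was 0.0304 and 0.0301 and RPTOR in the combination 0.0393 and 0.0394. RRAGC with asparaginase was -0.037 after quantile normalization, and RPTOR between combination and ibrutinib -0.031 after the correction for GC and length. Leaving out a library gave -0.16 to 0.02 for RPTOR in the Nalm6 combination (positive without combination library 1). The cause was not tested.

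Member counts moved by over 1.5 times in 4 comparisons. With ibrutinib in Nalm6 (1 member), voom gave 2, the GC and length correction 3 and leaving out the libraries that stood apart 3. With asparaginase in Sem (1), TPM gave 5, voom 4 and a fit of both lines 2, and leaving out a library 1 to 2, with 2 without untreated library 3. In the Sem combination (8), no filter gave 5, quantile normalization 5 and leaving out a library 5 to 6, with 5 without untreated library 3 or combination library 3. For departures from the sum in Sem (0 by limma; 206 of all genes called), quantile normalization gave 1, DDIT4.

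Over all genes, the calls with ibrutinib in Nalm6 (1647) were 1056 with no filter, 856 after quantile normalization, 2624 after the GC and length correction, 3343 without the libraries that stood apart, 2509 in a fit of both lines and 703 to 1530 without single libraries (each but untreated library 2 moved it over 1.5 times; 703 without untreated library 3). Departures from the sum in Nalm6 (739) were 1605, 1604 and 1360 with the GC and length correction, without those libraries and in a fit of both lines, and 430 to 974 without single libraries (at most 491 without untreated library 3, an ibrutinib library, asparaginase library 2 or 3, or combination library 2). In Sem (206) they were 136 with no filter, 438 with TPM, 651 with voom, 326 with unfiltered voom and 73 to 374 without single libraries (374 without untreated library 2; every library but asparaginase library 3 moved it over 1.5 times). Calls between the Sem combination and ibrutinib (1626) were 1045 to 1179 without single libraries (at most 1081 without ibrutinib library 2 or a combination library). TPM turned 3739 higher and 3714 lower with asparaginase in Nalm6 into 5070 and 2559, 4290 and 4137 with the combination into 5587 and 3054, and in Sem 2718 and 2854 with ibrutinib into 3902 and 2013.

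Pathway genes higher with ibrutinib in Nalm6 (3) were 0 with no filter, 6 with TPM, 1 after quantile normalization, 7 with voom, 7 after the GC and length correction, 1 with the replicate block, 5 in a fit of both lines and 0 to 3 without single libraries (0 or 1 without untreated library 3 or an ibrutinib library). Those lower (5) were 3, 1, 2, 2, 9, 3 with the block, 13 without the libraries that stood apart, 1 with unfiltered voom and 0 to 4 without single libraries (0 to 3 without an untreated library or ibrutinib library 1 or 2). In Nalm6, unfiltered voom gave 11 lower with asparaginase (17), and voom gave 22 higher in the combination (14). In Sem, TPM gave 17 and voom 14 higher with ibrutinib (9), and with asparaginase TPM gave 9 higher (5) and 7 lower (11), and the GC and length correction 3 higher, as did leaving out untreated library 1 or asparaginase library 3 (range 3 to 5).

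Same-numbered libraries correlated at -0.196 to 0.371 in Nalm6 (median 0.016) and -0.028 to 0.104 in Sem (median 0.037). Differently numbered ones correlated at -0.260 to 0.308 in Nalm6 (median -0.006) and -0.104 to 0.084 in Sem (median -0.022). The ranges overlapped, although both medians were higher for same numbers, and the numbers were not taken as pairs. A fit with the replicate block called 1494 genes with ibrutinib, 7312 with asparaginase and 8387 with the combination in Nalm6, and left member counts within a line as they were; between the lines it lost RPTOR at baseline (adjusted p = 0.101) and the FNIP2 asparaginase effect (adjusted p = 0.06). The comparison of protein sequences was not run. Counting error limits DEPTOR and CASTOR1, and the restored power of 10 limits every value of 1 FPKM or more.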

Other observations

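Most of the other pathway genes differed between the untreated lines, as did most genes. Of 49 tested with all 24 libraries, 19 were higher and 17 lower in Sem than in Nalm6 by limma. These are 73.5% of the list, against 65.9% of all genes called in either direction. SESN3 averaged 0.845 ± 0.034 FPKM in untreated Sem and 0.091 ± 0.037 in untreated Nalm6 cells (SD, n = 3 each). ULK1 averaged 11.9 ± 0.505 FPKM in Sem and 3.71 ± 0.372 in Nalm6, TFE3 8.36 ± 0.589 in Sem and 4.27 ± 0.41 in Nalm6, and TFEB 9.52 ± 0.377 in Sem and 4.10 ± 0.244 in Nalm6. MITF, the third of these factors listed, stayed under 1 FPKM in Sem and was listed at 0 in Nalm6. DDIT4L, the paralogue of DDIT4, averaged 0.164 to 0.414 FPKM in the Sem groups and at most 0.007 in the Nalm6 groups.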
